A study of Mus musculus with 12 samples.

Results

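The genes described here are 33 that carry fatty acids into the mouse heart muscle cell and oxidize them in its mitochondria: uptake and activation (5 genes), carnitine transport (5), malonyl-CoA control (2), the acyl-CoA dehydrogenases (4), electron transfer (3), hydration to thiolysis (5), unsaturated chains (3), thioesterases and the uncoupling protein Ucp3 (4), and the lipid droplet (2). They were taken by symbol from a list that was made with earlier results of these data known, and all 33 were found among the 55487 genes of the deposited expression table. Every one had at least 1 FPKM (sequenced fragments mapped to a gene, per kilobase of its transcript and relative to the library's total) in all 12 libraries, so none was lost to the filter on low values.

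RNA was sequenced from hearts of wild-type mice, operated on under isoflurane, with 3 libraries in each of 4 groups. I/R+B12 mice drank vitamin B12 at 50 mg/L (about 4 mL of water a day) for 7 days, then had the left anterior descending coronary artery tied off for 45 min and reopened for 24 h (ischemia/reperfusion, I/R). I/R mice had the same coronary occlusion after normal water. Sham+B12 mice had the B12 water and surgery that left the artery open, and Sham mice had normal water and that same open-artery surgery. The region of the heart sampled and the strain, sex and age are not given in the sources used here, and nothing says more of the replicates than that they are separate samples, so the p-values measure the spread between these samples.

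Fatty acids are the main fuel of the adult heart. They cross the membrane with the help of CD36 and the transport protein FATP1 (Slc27a1), are bound by the heart fatty acid-binding protein (Fabp3), joined to coenzyme A, and passed into mitochondria as carnitine esters by the carnitine palmitoyltransferases. Inside, beta-oxidation shortens the chain by repeated rounds of dehydrogenation, hydration, a further dehydrogenation and thiolysis, and the electrons reach the respiratory chain through the electron transfer flavoprotein. Malonyl-CoA, made by the mitochondrial acetyl-CoA carboxylase (Acacb) and removed by malonyl-CoA decarboxylase (Mlycd), inhibits the entry step at carnitine palmitoyltransferase I.

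An estimated 24.5 M to 28.5 M fragments per library lay behind the FPKM, and 11490 to 12612 genes reached 1 FPKM. In a transcript of 1500 nt, 1 FPKM stood for an estimated 30.1 to 35.1 fragments, and the lowest member, Slc22a5, averaged 8.79 FPKM over the 12 libraries. Cardiomyocyte markers were abundant in every library (12 markers, summed level 51153 to 79790 FPKM), as the label heart implies. Of 8 adipocyte markers, the summed level was 0.61 to 9.66 FPKM and leptin stood at 0.01 FPKM in I/R 3 and at 0 in the others. The library labelled I/R 3 was most like Sham 2 (r = 0.982 across genes) and held 18.1 FPKM of 7 summed neutrophil markers, against 1513 and 1644 FPKM in I/R 1 and I/R 2. The library labelled Sham 3 was most like I/R+B12 1 (r = 0.969) and held 274 FPKM of those markers, against 11.8 and 14.7 FPKM in Sham 1 and Sham 2. Its Nppa, the atrial natriuretic peptide gene, stood at 3157 FPKM. Labels were kept as given. Where leaving out Sham 3 and I/R 3 together turned a printed difference between I/R and Sham hearts or moved it by over 1.5 times, its value without them stands beside it.

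Levels of the members spanned from Fabp3 (4475 FPKM on average over the 12 libraries) through Etfb (1126), Hadhb (1026), Lpl (884) and Cd36 (659) down to Cpt1a (21.0), Acot1 (19.4) and Slc22a5 (8.79). Of 33 members, 31 had a lower mean log2 value in the 6 I/R hearts than in the 6 sham hearts, and 3 of them passed the test.

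**Figure D1:**
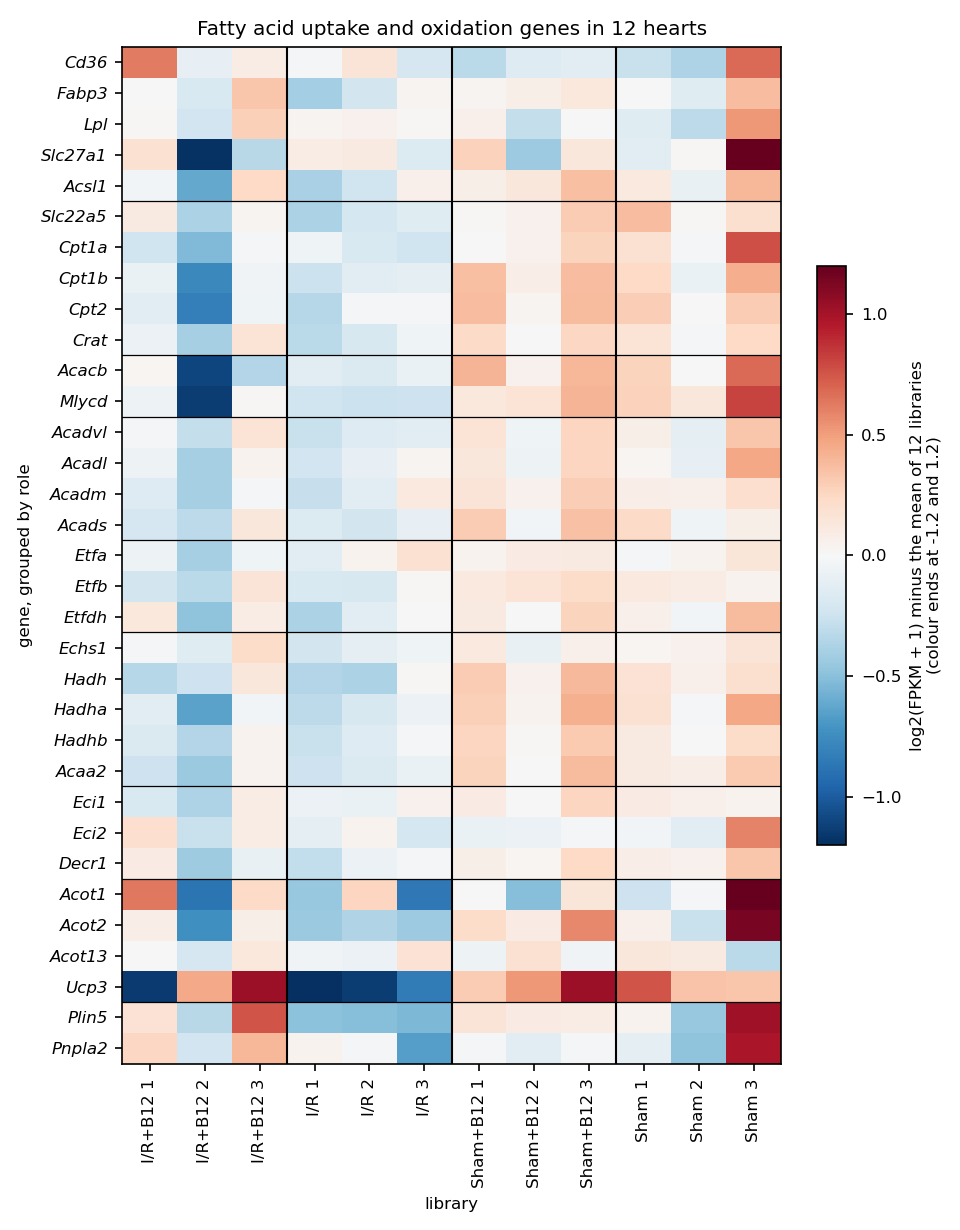
Each row is 1 of the 33 genes and each column 1 library, in the order I/R+B12, I/R, Sham+B12 and Sham (3 libraries each). Colour gives log2(FPKM + 1) minus the gene's mean over the 12 libraries, red above and blue below. I/R+B12 2 is the lowest library for 24 of the 33 genes and Sham 3 the highest for 19.

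The first question was what I/R did to these genes, in mice given B12, in mice on normal water, and on average. Differences are in log2(FPKM + 1), from 1 limma fit of all 12 libraries over 13001 genes, with Benjamini-Hochberg adjusted p and a threshold of 0.05. Between I/R+B12 and Sham+B12 hearts, 27 of 33 members had a negative difference. Their median was -0.27, and that of all tested genes -0.023. None of the members passed the test in limma, against 10.4% of all genes. At an unadjusted p under 0.05, 11 members were lower and 0 higher, where 15% of all genes were lower and 17.3% higher. Without any overlap of libraries, 9 members were lower (13.2% of all genes) and 1 was higher, Cd36 (19.1%).

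On normal water, in I/R against Sham, 31 of 33 members had a negative difference. Their median was -0.32 and that of all tested genes 0.13. No member passed in limma, and 0% of all genes did. At an unadjusted p under 0.05, 7 members were lower (1.04% of all genes) and 0 higher (10.6%). In 19 members all 3 I/R libraries lay below all 3 Sham libraries, where this held for 3.6% of all genes. Without Sham 3 and I/R 3, 27 members had a negative difference and the median was -0.27.

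Averaged over both kinds of water, 31 members had a negative difference, with a median of -0.29 against 0.053 for all tested genes. Acaa2, Hadha and Hadh fell, which makes 3 of 33, where 1.71% of all genes fell. At an unadjusted p under 0.05, 17 members were lower (9.54% of all genes) and 0 higher (21.8%). All 6 I/R libraries lay below all 6 sham libraries for Cpt2, Mlycd and Hadha, which held for 0.646% of all genes. The 3 calls stood close to the threshold. None was left without I/R+B12 2, I/R 1, I/R 2, Sham+B12 1, Sham+B12 3, Sham 1, Sham 2 or Sham 3, and there were 9 without I/R+B12 1, 13 without I/R+B12 3, 6 without I/R 3 and 1 without Sham+B12 2. The calls over all genes moved too: 1309 of 13001 in the fit of 12 libraries, and in those 4 settings 2700, 2261, 2118 and 562. In the settings without a member call they were, in the order named, 612, 0, 2, 0, 0, 0, 283 and 1390. Where no gene at all was called, the loss of the member calls says nothing particular to the members. Without Sham 3 and I/R 3 together Hadh alone was called, with -0.44 (adjusted p 0.0316; 2298 of 13001 genes called), while 28 members had a negative difference and the median was -0.28. Over all alternatives the adjusted p ran from 0.0180 to 0.808 for Acaa2, from 0.0152 to 0.508 for Hadha and from 0.0126 to 0.756 for Hadh. The upper ends came from values relative to cardiomyocyte markers (described below), where the differences were -0.036, -0.11 and -0.039. With each library left out in turn, the upper ends were 0.106, 0.118 and 0.125. The difference was negative in each setting.

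**Figure D2:**
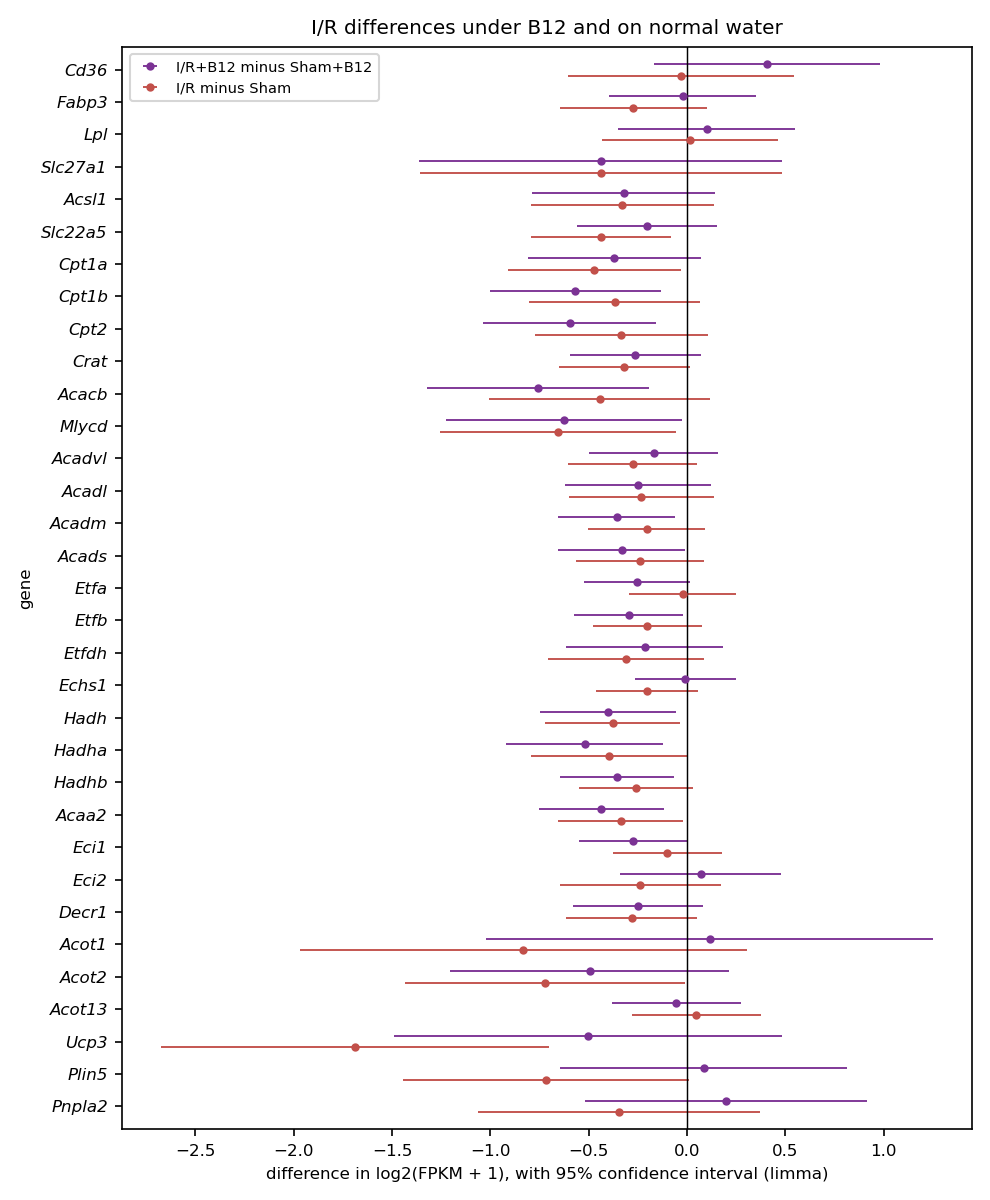
For each of the 33 genes, the difference in log2(FPKM + 1) with its 95% confidence interval, I/R+B12 minus Sham+B12 in purple above and I/R minus Sham in red below. Most estimates lie left of 0 on both kinds of water (27 and 31 of 33), and the interval of Ucp3 on normal water reaches furthest to the left.

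The cell types of the heart moved with these differences. All 12 cardiomyocyte markers had a negative I/R difference on both kinds of water, with medians of -0.27 under B12 and -0.28 on normal water, and none was called. Neutrophil markers summed to 1220, 3127 and 269 FPKM in I/R+B12 hearts and to 7.16, 42.8 and 10.6 FPKM in Sham+B12 hearts. Relative to the mean log2 level of the 12 cardiomyocyte markers in each library, a setting added after the data were seen, the members' median difference was 0.065 under B12, 0.042 on normal water and 0.060 on average, where all tested genes had medians of 0.32, 0.49 and 0.40. Ucp3 was the single member called in that setting, where 3967 of 13001 genes were called in the average (-0.75, adjusted p 0.0483, on average, and 0.0135 to 0.128 over the alternatives). In bulk tissue, fewer heart muscle cells and less RNA per cell cannot be told apart.

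Uptake genes did not share 1 direction. Values below follow the order of libraries 1, 2 and 3 of a group, and gene positions are those of GENCODE M21 on GRCm38. Cd36 (chr5:17781690-17888801, minus strand), the main fatty acid translocase, had 989, 598 and 681 FPKM in I/R+B12 hearts, against 513, 577 and 586 FPKM in Sham+B12 hearts. All 3 I/R+B12 hearts were above all 3 Sham+B12 hearts, a difference of 0.41 with an SE of 0.26 (adjusted p 0.30). On normal water Cd36 had 636, 714 and 556 FPKM in I/R hearts, against 531, 495 and 1028 FPKM in Sham hearts, and the groups overlapped through Sham 3, the highest of all 12 libraries. The difference there was -0.033, and 0.39 without Sham 3 and I/R 3. Fabp3, which carries fatty acids in the cytosol, had 4445, 3908 and 5579 FPKM in I/R+B12 hearts, against 4524, 4645 and 4831 FPKM in Sham+B12 hearts. On normal water Fabp3 had 3328, 3792 and 4522 FPKM in I/R hearts, against 4412, 3994 and 5721 FPKM in Sham hearts, and the groups overlapped in both cases.

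Lpl, the lipoprotein lipase that frees fatty acids from circulating triglyceride, had 884, 743 and 1063 FPKM in I/R+B12 hearts, against 910.0, 716 and 869.7 FPKM in Sham+B12 hearts. On normal water Lpl had 893, 906 and 879.9 FPKM in I/R hearts, against 786, 700.1 and 1254 FPKM in Sham hearts. The I/R libraries were close together, and Sham 3 alone was above them. The difference was 0.015, and 0.28 without Sham 3 and I/R 3. Slc27a1 encodes the acyl-CoA-forming transporter FATP1. It had 65.2, 24.6 and 45.3 FPKM in I/R+B12 hearts, against 69.6, 42.1 and 63.2 FPKM in Sham+B12 hearts, and I/R+B12 2 was the lowest of the 12 libraries. On normal water Slc27a1 had 60.9, 61.9 and 50.9 FPKM in I/R hearts, against 52.1, 57.8 and 159.5 FPKM in Sham hearts, with Sham 3 far above every other library. The difference of -0.44 turned to 0.16 without Sham 3 and I/R 3. Acsl1, the main heart enzyme that joins long chains to coenzyme A, ranged over the 12 libraries from 117 to 235 FPKM. Its difference was -0.32 under B12 and -0.33 on normal water, without a call.

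The carnitine shuttle had 5 of 5 members with a negative difference on both kinds of water, none called. Cpt1b (chr15:89416405-89425863, minus strand), the muscle form of the enzyme that makes acylcarnitines at the outer mitochondrial membrane, had 183, 112 and 188 FPKM in I/R+B12 hearts, against 249, 204 and 249.6 FPKM in Sham+B12 hearts. On normal water Cpt1b had 161, 176 and 179 FPKM in I/R hearts, against 228, 183 and 262 FPKM in Sham hearts. The I/R libraries were below their sham libraries on each kind of water, with differences of -0.57 (SE 0.20, adjusted p 0.0806) under B12 and -0.37 (adjusted p 0.469) on normal water.

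Cpt2 (chr4:107903981-107923610, minus strand) rebuilds the acyl-CoA at the inner membrane. Its libraries had 95.8, 59.3 and 102 FPKM in I/R+B12 hearts, against 137, 108 and 137 FPKM in Sham+B12 hearts. On normal water Cpt2 had 82.7, 104 and 104 FPKM in I/R hearts, against 129, 106 and 130.5 FPKM in Sham hearts. All 6 I/R hearts were below all 6 sham hearts, and the difference was -0.47 on average (95% interval -0.78 to -0.15, adjusted p 0.0582).

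Cpt1a, the liver form of the outer-membrane enzyme, was far lower in level: it had 17.2, 13.9 and 20.2 FPKM in I/R+B12 hearts, against 20.5, 21.4 and 24.9 FPKM in Sham+B12 hearts. On normal water Cpt1a had 19.8, 17.9 and 17.2 FPKM in I/R hearts, against 23.4, 20.2 and 35.7 FPKM in Sham hearts. The groups did not overlap on either kind of water, and no difference was called (-0.37 under B12 and -0.47 on normal water, the second being -0.20 without Sham 3 and I/R 3). The ratio of Cpt1b to Cpt1a FPKM averaged 9.33 ± 1.27 among I/R+B12, 9.47 ± 1.19 in I/R, 10.6 ± 1.38 in Sham+B12 and 8.71 ± 1.25 in Sham hearts (SD, n = 3 each). The ranges of the groups overlapped.

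Slc22a5, the carnitine importer OCTN2, had 9.44, 6.45 and 8.89 FPKM in I/R+B12 hearts, against 8.77, 9.05 and 10.9 FPKM in Sham+B12 hearts, which overlapped. On normal water Slc22a5 had 6.45, 7.36 and 7.76 FPKM in I/R hearts, against 11.5, 8.79 and 10.1 FPKM in Sham hearts, and all 3 I/R hearts were below all 3 Sham hearts (difference -0.44, SE 0.16, adjusted p 0.399). Crat, which exchanges short acyl groups between carnitine and coenzyme A, ranged from 112 to 177 FPKM, with differences of -0.26 under B12 and -0.32 on normal water.

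Both genes of malonyl-CoA turnover were lower in level in every I/R heart than in the sham hearts given the same water. Acacb (chr5:114146535-114250761, plus strand), which makes malonyl-CoA at the mitochondrial surface, had 46.1, 20.5 and 35.2 FPKM in I/R+B12 hearts, against 60.2, 46.8 and 59.8 FPKM in Sham+B12 hearts. On normal water Acacb had 41.1, 40.0 and 42.6 FPKM in I/R hearts, against 54.5, 45.4 and 73.0 FPKM in Sham hearts. The difference under B12 was -0.76 (95% interval -1.32 to -0.20, adjusted p 0.0746), and I/R+B12 2 was the lowest library. On normal water it was -0.44, and -0.29 without Sham 3 and I/R 3.

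Mlycd (chr8:119394878-119411102, plus strand), which destroys malonyl-CoA, had 60.4, 28.1 and 63.8 FPKM in I/R+B12 hearts, against 69.1, 70.6 and 84.0 FPKM in Sham+B12 hearts. On normal water Mlycd had 53.4, 52.4 and 52.9 FPKM in I/R hearts, against 76.6, 69.5 and 111 FPKM in Sham hearts. All 6 I/R hearts were below all 6 sham hearts, with an average difference of -0.64 (adjusted p 0.0561). The Acacb to Mlycd ratio averaged 0.682 ± 0.113 among I/R+B12, 0.780 ± 0.0227 in I/R, 0.749 ± 0.109 in Sham+B12 and 0.673 ± 0.0331 in Sham hearts (SD, n = 3 each). It was 0.764 to 0.806 in the I/R hearts, above the 0.652 to 0.712 of the Sham hearts, and overlapped under B12; this was seen in the data and not tested.

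The acyl-CoA dehydrogenases open each round of beta-oxidation, and Acadvl, Acadl, Acadm and Acads take chains from very long to short. All 4 had a negative difference on both kinds of water, from -0.36 to -0.17 under B12 and from -0.28 to -0.21 on normal water, and none was called. Acadl, at -0.23 on normal water, was -0.13 without Sham 3 and I/R 3. Acadm, the medium-chain enzyme, had 419, 354 and 461 FPKM in I/R+B12 hearts, against 519, 484 and 573 FPKM in Sham+B12 hearts. On normal water Acadm had 385, 428 and 507 FPKM in I/R hearts, against 493, 487 and 535 FPKM in Sham hearts. The groups were apart under B12 (difference -0.36, adjusted p 0.0977) and overlapped on normal water, where I/R 3 was above the Sham 1 and Sham 2 libraries. Over the 12 libraries Acadvl ranged from 394 to 605 FPKM, Acadl from 338 to 616 and Acads from 109 to 174.

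The electron transfer flavoprotein takes the electrons of those dehydrogenases to ubiquinone. Etfa, its alpha subunit, had 339, 269 and 341 FPKM in I/R+B12 hearts, against 366, 379 and 381 FPKM in Sham+B12 hearts. All 3 I/R+B12 hearts were below all 3 Sham+B12 hearts (-0.25, adjusted p 0.178). On normal water Etfa had 324, 366 and 403 FPKM in I/R hearts, against 349.9, 365 and 392 FPKM in Sham hearts, and the groups overlapped (-0.023, and -0.055 without Sham 3 and I/R 3). Etfb, the beta subunit, ranged from 894 to 1298 FPKM and the ubiquinone oxidoreductase Etfdh from 169 to 308. Their differences were -0.30 and -0.22 under B12 and -0.20 and -0.31 on normal water.

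The steps from hydration to thiolysis held the 3 members that fell. Hadha (chr5:30118304-30155162, minus strand) encodes the alpha subunit of the mitochondrial trifunctional protein, which hydrates long-chain enoyl-CoA and oxidizes the product. Hadha had 385, 269 and 411 FPKM in I/R+B12 hearts, against 514, 433 and 567 FPKM in Sham+B12 hearts. On normal water Hadha had 339, 368 and 402 FPKM in I/R hearts, against 477, 414 and 581 FPKM in Sham hearts. All 6 I/R hearts were below all 6 sham hearts, by a narrow gap between 411 FPKM in I/R+B12 3 and 414 in Sham 2. Hadha fell by 0.46 on average (SE 0.13, adjusted p 0.0464), with means of 362 ± 52.3 FPKM in I/R and 498 ± 68.8 FPKM in sham hearts (SD, n = 6 each).

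Hadhb, the thiolase subunit of that protein, had 904, 797 and 1045 FPKM in I/R+B12 hearts, against 1212, 1027 and 1265 FPKM in Sham+B12 hearts. On normal water Hadhb had 843, 914 and 1003 FPKM in I/R hearts, against 1099, 1019.9 and 1186 FPKM in Sham hearts. Its average difference was -0.31 (adjusted p 0.0568), and under B12 the groups overlapped at I/R+B12 3 and Sham+B12 2. The Hadhb to Hadha ratio ran from 2.04 to 2.96 over the 12 libraries, lowest in Sham 3 and highest in I/R+B12 2, with means of 2.62 ± 0.311 among I/R+B12, 2.49 ± 0.00744 in I/R, 2.32 ± 0.0794 in Sham+B12 and 2.27 ± 0.212 in Sham hearts (SD, n = 3 each). On normal water every I/R heart had a higher ratio than every Sham heart, and under B12 the ranges overlapped.

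Hadha and Hadhb are neighbours on chromosome 5 and are read in opposite directions from start sites 273 bases apart (30154980 on the minus strand and 30155253 on the plus strand, RefSeq on GRCm38.p6). The stretch between the outermost exons of both genes in GENCODE M21, chr5:30155163-30155247, 85 bases on the plus strand, is shown because both subunits share it. It is followed by the bases upstream of Hadh, chr3:131272102-131272351 on the minus strand, the called member with a window in the RefSeq table besides Hadha. Capitals mark the GC box GGGCGG on either strand, which lies 90 and 25 bases before the Hadhb start and 69 and 52 bases before the Hadh start.
Hadhb: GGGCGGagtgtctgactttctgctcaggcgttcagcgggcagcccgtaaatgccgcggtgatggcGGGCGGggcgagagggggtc
Hadh: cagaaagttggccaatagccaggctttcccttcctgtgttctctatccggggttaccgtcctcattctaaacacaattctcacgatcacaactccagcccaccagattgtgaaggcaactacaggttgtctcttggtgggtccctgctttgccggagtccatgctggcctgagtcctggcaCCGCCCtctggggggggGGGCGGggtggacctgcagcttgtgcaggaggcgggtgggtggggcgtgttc
In the 250 bases before a start, GGGCGG was found on either strand for 17 of the 27 members with a window, in 61.3% of their 31 windows and in 32.74% of all 32851 windows. The E-box CACGTG was found for Slc27a1 alone among the members, in 3.2% of their windows and in 6.02% of all windows. A match of letters describes the sequence and is not a measured binding site.

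Hadh (chr3:131233419-131272101, minus strand), the dehydrogenase for medium and short 3-hydroxyacyl chains, had 258, 275 and 360.4 FPKM in I/R+B12 hearts, against 404, 339.9 and 430.1 FPKM in Sham+B12 hearts. On normal water Hadh had 256, 251 and 331 FPKM in I/R hearts, against 369, 341 and 373 FPKM in Sham hearts. The groups overlapped under B12 through I/R+B12 3 and did not overlap on normal water. It fell by 0.39 on average (SE 0.11, adjusted p 0.0486), to 289 ± 45.9 FPKM in I/R hearts against 376 ± 35.6 FPKM in sham hearts (SD, n = 6 each).

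Acaa2 (chr18:74779197-74806208, plus strand), the mitochondrial thiolase that releases acetyl-CoA, had 492, 427 and 599.8 FPKM in I/R+B12 hearts, against 703, 586 and 759 FPKM in Sham+B12 hearts. On normal water Acaa2 had 489.6, 516 and 549.5 FPKM in I/R hearts, against 628, 614 and 726 FPKM in Sham hearts. One injured heart, I/R+B12 3, lay within the range of the Sham+B12 hearts. Acaa2 fell by 0.39 on average (SE 0.10, adjusted p 0.0407), with 512 ± 58.6 FPKM in I/R hearts and 669 ± 69.6 FPKM in sham hearts (SD, n = 6 each). Echs1, the short-chain hydratase, stayed between 207 and 281 FPKM, and its differences of -0.0076 under B12 and -0.20 on normal water were not called.

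**Figure D3:**
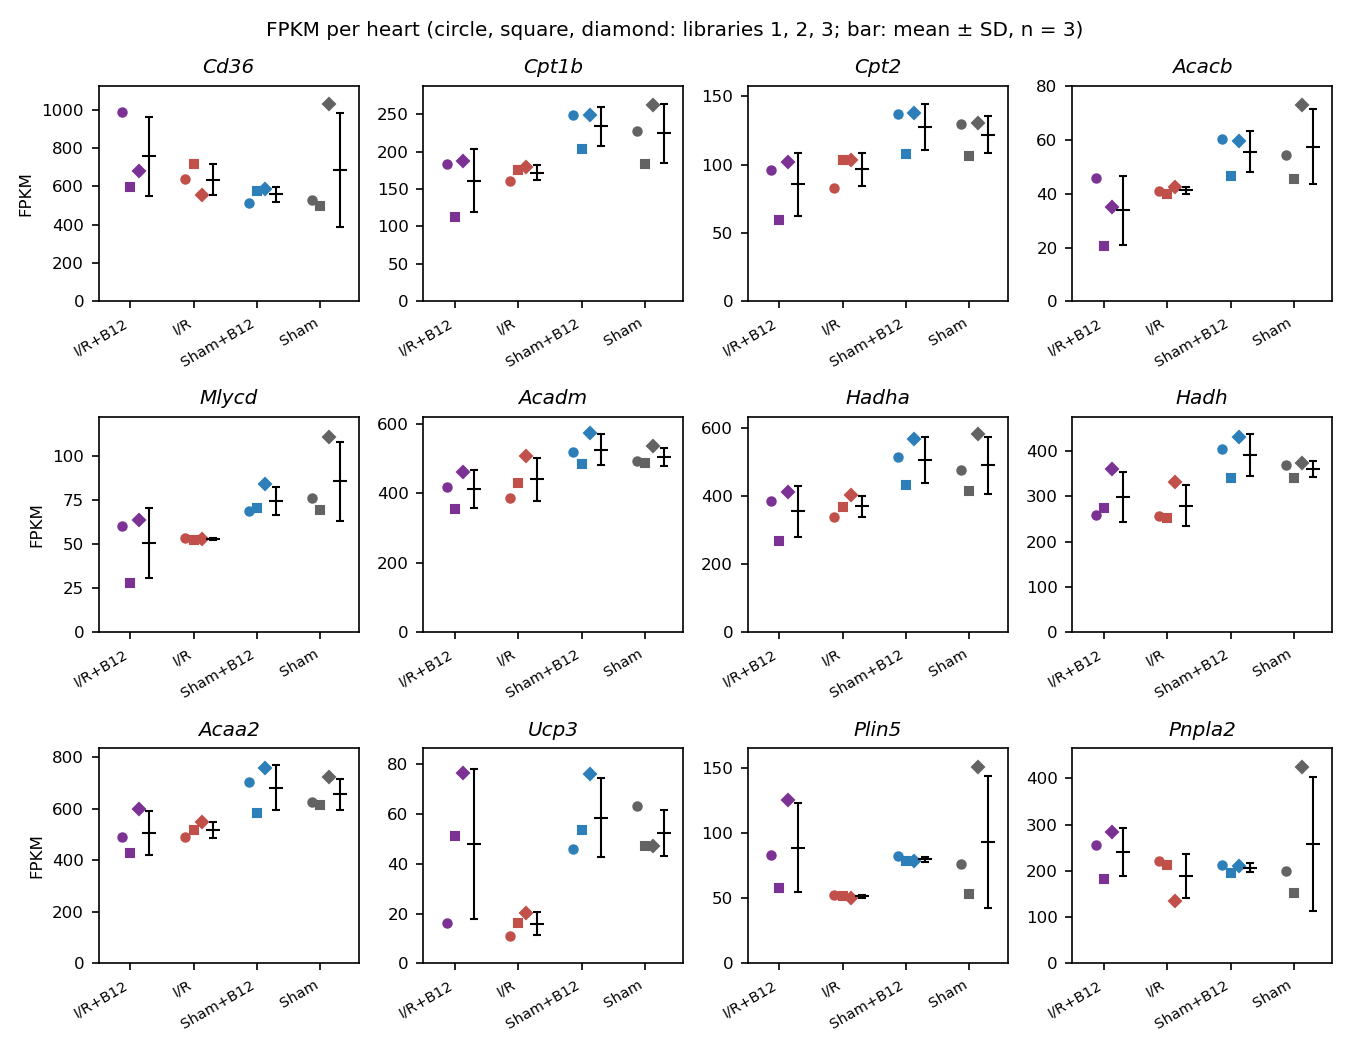
FPKM of 12 members in each heart (circle, square and diamond for libraries 1, 2 and 3), with bars for mean ± SD (n = 3) and groups in the order I/R+B12, I/R, Sham+B12 and Sham. Hadha, Mlycd and Cpt2 show all 6 I/R points below the 6 sham points, while Cd36, Plin5 and Pnpla2 show Sham 3 above the other Sham points.

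Unsaturated chains need further isomerases and a reductase. Eci2, an enoyl-CoA isomerase of mitochondria and peroxisomes, had 146, 105 and 135 FPKM in I/R+B12 hearts, against 119.5, 120.4 and 124 FPKM in Sham+B12 hearts. On normal water Eci2 had 117, 130.5 and 109 FPKM in I/R hearts, against 124, 116 and 192 FPKM in Sham hearts. The groups overlapped, and Sham 3 was the highest library. The normal-water difference of -0.24 was 0.046 without Sham 3 and I/R 3. Eci1, the mitochondrial isomerase, ranged from 191 to 295 FPKM with differences of -0.27 under B12 and -0.10 on normal water, the second being -0.15 without Sham 3 and I/R 3. Decr1, the dienoyl-CoA reductase, ranged from 88.8 to 151 FPKM with differences of -0.25 and -0.28.

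The widest difference of a member between I/R and Sham hearts was that of Ucp3 (chr7:100472990-100486432, plus strand), the muscle and heart uncoupling protein, whose RNA is known to follow fatty acid supply. On normal water Ucp3 had 11.1, 16.3 and 20.3 FPKM in I/R hearts, against 63.3, 47.2 and 47.0 FPKM in Sham hearts. The I/R level was 15.9 ± 4.61 FPKM and the Sham level 52.5 ± 9.36 FPKM (SD, n = 3 each), and all 3 I/R hearts, I/R 3 included, were below all 3 Sham hearts. The difference was -1.69 (SE 0.45, 95% interval -2.67 to -0.70, adjusted p 0.378), and without Sham 3 and I/R 3 it was -1.95. Given B12, Ucp3 had 16.2, 51.1 and 76.7 FPKM in I/R+B12 hearts, against 46.1, 53.5 and 76.3 FPKM in Sham+B12 hearts. I/R+B12 1 was at the level of the I/R hearts and the other two I/R+B12 hearts were above the lowest Sham+B12 heart, so the groups overlapped (-0.50, adjusted p 0.456).

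The bases before the Ucp3 start, chr7:100472741-100472989 on the plus strand (RefSeq, GRCm38.p6), are printed because Ucp3 had the widest normal-water difference among the members. Capitals mark AGGTCA, the core motif bound by nuclear receptors, searched on both strands, at 149 and 44 bases before the start.
Ucp3: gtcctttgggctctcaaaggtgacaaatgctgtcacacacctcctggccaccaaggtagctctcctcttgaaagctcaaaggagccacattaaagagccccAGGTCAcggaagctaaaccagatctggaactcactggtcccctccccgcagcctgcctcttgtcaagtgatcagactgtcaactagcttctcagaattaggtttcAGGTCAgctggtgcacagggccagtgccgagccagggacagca
AGGTCA lay in the 250-base windows of 7 of 27 members (Acadm, Acadvl, Cd36, Cpt1a, Echs1, Plin5 and Ucp3), which were 22.6% of the members' windows against 14.02% of all windows. No member window held 2 copies of AGGTCA in direct repeat with 1 base between, the form named for the PPAR receptors, which was in 0.03% of all windows. Neither did any hold TCAAGGTCA, the site named for the estrogen-related receptors, found in 0.39% of all windows. Both of these longer motifs contain AGGTCA, and no match says only that these letters are absent from the window.

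The acyl-CoA thioesterases split acyl-CoA back to free fatty acid, Acot1 in the cytosol and Acot2 in mitochondria. They are near-identical neighbours on chromosome 12, so reads shared between them could be split by the counting and their values are uncertain. Acot1 had 26.8, 8.75 and 20.1 FPKM in I/R+B12 hearts, against 17.1, 11.6 and 18.8 FPKM in Sham+B12 hearts. On normal water Acot1 had 12.1, 20.4 and 8.91 FPKM in I/R hearts, against 14.1, 16.8 and 57.5 FPKM in Sham hearts, and Sham 3 was 3.73 times the mean of Sham 1 and Sham 2. The difference of -0.83 was 0.030 without Sham 3 and I/R 3. Acot2 had 42.0, 23.5 and 41.7 FPKM in I/R+B12 hearts, against 46.6, 42.6 and 59.6 FPKM in Sham+B12 hearts. On normal water Acot2 had 28.9, 30.8 and 29.1 FPKM in I/R hearts, against 41.4, 32.9 and 88.5 FPKM in Sham hearts. For Acot2 the I/R hearts were below the sham hearts of the same water in both cases (-0.50 and -0.72, neither called). The second was -0.30 without Sham 3 and I/R 3. Acot13, another mitochondrial thioesterase, ranged from 241 to 344 FPKM, with differences of -0.06 and 0.05, the second turning to -0.18 without Sham 3 and I/R 3.

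At the lipid droplet, Pnpla2 (chr7:141455198-141460743, plus strand; adipose triglyceride lipase) starts the release of stored fatty acids and Plin5 (chr17:56111601-56117596, minus strand) ties the droplet to mitochondria. Pnpla2 had 256, 183 and 283 FPKM in I/R+B12 hearts, against 213, 195 and 211 FPKM in Sham+B12 hearts. On normal water Pnpla2 had 221, 212 and 135 FPKM in I/R hearts, against 199, 153 and 424 FPKM in Sham hearts, and the groups overlapped on both kinds of water. The normal-water difference of -0.34 turned to 0.31 without Sham 3 and I/R 3. Plin5 had 83.0, 58.1 and 125 FPKM in I/R+B12 hearts, against 82.1, 78.8 and 78.3 FPKM in Sham+B12 hearts, which overlapped. On normal water Plin5 had 52.1, 51.4 and 50.3 FPKM in I/R hearts, against 75.8, 53.5 and 150.4 FPKM in Sham hearts. The I/R libraries lay within 2 FPKM of each other and just under Sham 2, and the difference of -0.72 (adjusted p 0.430) was -0.29 without Sham 3 and I/R 3.

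The second question was what B12 did, within I/R hearts and within sham hearts. These comparisons share their libraries with those above. Between I/R+B12 and I/R hearts 17 members were negative and 16 positive, with a median of -0.0098, against -0.21 for all tested genes. In limma 0 members and 0% of all genes passed. At an unadjusted p under 0.05 there were 0 lower members (24.6% of all genes) and 1 higher, Ucp3 (3.9%). All 3 I/R+B12 libraries lay above all 3 I/R libraries for 1 member, Plin5 (4.41% of all genes), and below for 0 (18.8%). The median of all genes depended on the scaling: with median-ratio scaling it was 0.016 and the members' median 0.26, and in I/R against Sham that scaling brought the median of all genes to -0.0030 and the members' median to -0.48.

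Ucp3 had 16.2, 51.1 and 76.7 FPKM in I/R+B12 hearts, against 11.1, 16.3 and 20.3 FPKM in I/R hearts. I/R+B12 2 and 3 were above every I/R heart and I/R+B12 1 was among them. The difference was 1.32 (SE 0.45, 95% interval 0.34 to 2.31, adjusted p 0.104). Without I/R+B12 1, the library most like I/R 1 across all genes, Ucp3 was called at 1.95 (adjusted p 0.00128), 1 of 33 members where 4412 of 13001 genes were called. Its adjusted p ran from 0.00128 to 0.302 over the alternatives. Plin5 had 83.0, 58.1 and 125 FPKM in I/R+B12 hearts, against 52.1, 51.4 and 50.3 FPKM in I/R hearts, with no overlap (0.71, SE 0.33, adjusted p 0.182). Neither passed the threshold in the fit of all 12 libraries. The next by p were Etfa (-0.21, adjusted p 0.284, and -0.13 without Sham 3 and I/R 3) and Fabp3 (0.25, adjusted p 0.337), whose groups overlapped. Cell type markers moved both ways here, where 71.8% of all tested genes had a negative difference. Neutrophil markers were positive in 6 of 7 (median 0.80) and cardiomyocyte markers in 10 of 12 (median 0.16). Endothelial markers were positive in 3 of 8 (median -0.22). Fibroblast markers were negative in 7 of 7 (median -1.23), summing to 355 to 434.5 FPKM in I/R+B12 and 759.6 to 801 FPKM in I/R hearts. Monocyte and macrophage markers were negative in 7 of 8 (median -1.33). They summed to 136 to 466 FPKM in I/R+B12 and 433 to 852 FPKM in I/R hearts, which overlapped. Without overlap of libraries, 5 fibroblast and 3 monocyte and macrophage markers were lower (18.8% of all genes). No marker of any of these lists was called, and their part in the values of the members was not tested.

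Between Sham+B12 and Sham hearts the members' median was 0.0034, against -0.072 for all tested genes. Limma called 0 members and 0% of all genes. No member had an unadjusted p under 0.05 (1.69% of all genes, 1.18% lower and 0.508% higher). For no member were the libraries of the groups apart, which 8.98% of all genes were with lower and 1.54% with higher values. The smallest p belonged to Acot1 (-0.60), Eci2 (-0.21), Slc27a1 (-0.45) and Cpt1a (-0.20), each with an adjusted p of 0.999. Without Sham 3 they were 0.010, 0.021, 0.054 and 0.026, and the members' median was 0.11.

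Whether the I/R difference itself differed with B12 was tested as an interaction, taken as I/R+B12 minus Sham+B12 less the same difference on normal water. Limma called 0 members and 0% of all genes, and at an unadjusted p under 0.05 there were 0 members in either direction (12.3% of all genes, 8.86% lower and 3.41% higher). Ucp3 had the smallest p (1.18, 95% interval -0.21 to 2.58, adjusted p 0.432), and without I/R+B12 1 it was called at 1.81 (adjusted p 0.0179, and 0.0179 to 0.852 over the alternatives), where 1830 of 13001 genes were called. The next were Plin5 (0.80, adjusted p 0.456), Etfa (-0.23, adjusted p 0.544) and Acot1 (0.95, adjusted p 0.552). Without Sham 3 and I/R 3 they were 0.38, -0.20 and 0.086.

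The spread within a group was uneven. The SD of log2(FPKM + 1) within a group had a median over members of 0.26 for I/R+B12, 0.13 for I/R, 0.15 for Sham+B12 and 0.24 for Sham hearts, where over all tested genes it was 0.32, 0.17, 0.14 and 0.19. In I/R+B12 2, 29.2% of all tested genes were above the mean of the rest of its group, with a median ratio of 0.824. Of the members, 32 of 33 were below that mean, with a median ratio of 0.741. The exception was Ucp3 (1.10). Mlycd (0.452), Slc27a1 (0.445) and Acot1 (0.373) had the lowest ratios. That library also held the most neutrophil marker RNA, 3127 FPKM. For I/R+B12 3, with the highest cardiomyocyte marker sum of its group (77506 FPKM), 32 of 33 members were above the mean of the other two, all but Cd36 (0.859). Of all tested genes, 38.5% were above that mean. Without I/R+B12 2 the median difference of the members in I/R+B12 against Sham+B12 was -0.12, and 24 had a negative difference. The part of neutrophil or heart muscle cell content in these results was not tested.

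Sham 3 was above the mean of Sham 1 and Sham 2 for 27 of 33 members and for 49.9% of all tested genes. It was more than 2 times that mean for 6 members, or 18.2%, where 3.94% of all tested genes were. These members were Acot1 (3.73), Slc27a1 (2.90), Pnpla2 (2.41), Acot2 (2.38), Plin5 (2.33) and Cd36 (2.00). Ucp3 was not among them (0.851), and Acot13 had the lowest ratio (0.731). The 9 dehydrogenases and enzymes from hydration to thiolysis ranged from 0.983 for Acads to 1.42 for Acadl. Sham 3 also held the highest Nppa and the highest neutrophil marker sum of the 6 sham hearts, whose part in this was not tested.

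**Figure D4:**
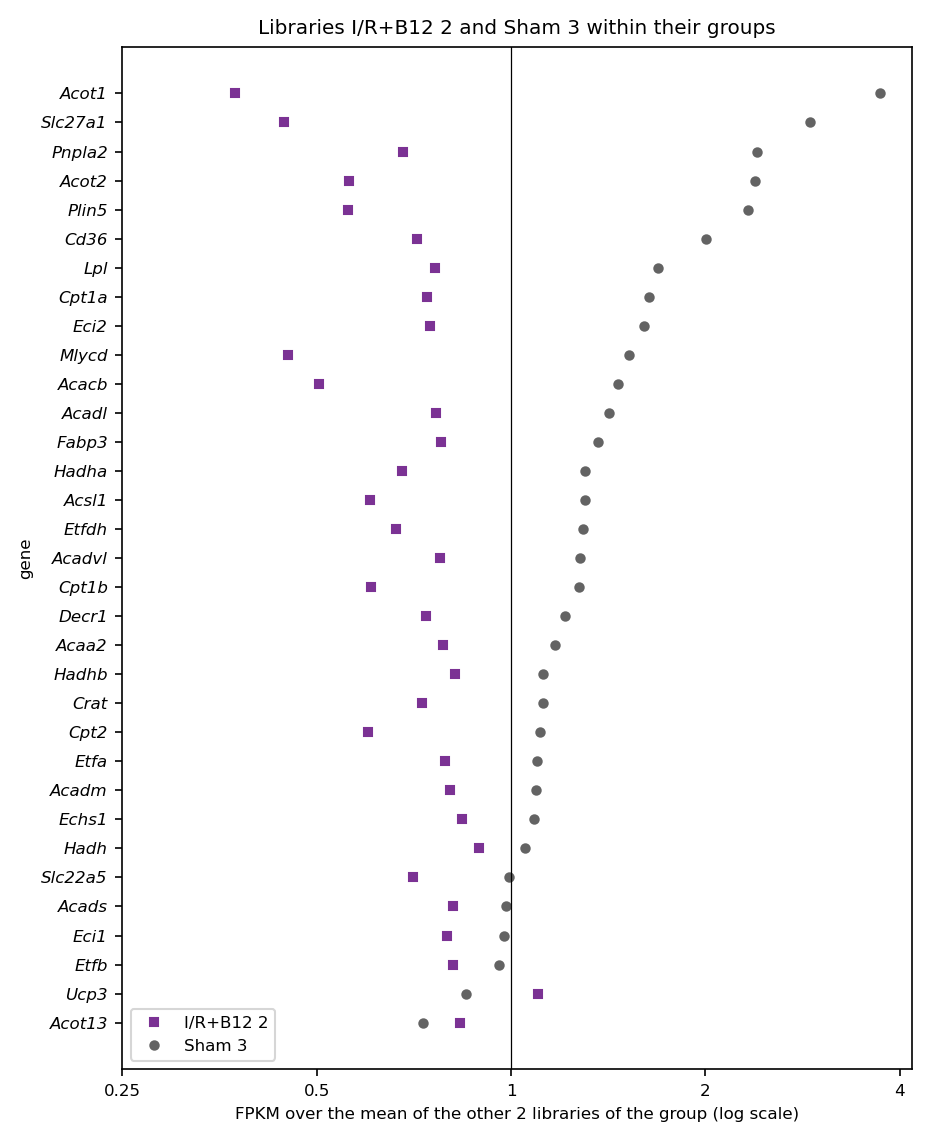
For each of the 33 genes, the FPKM of 1 library over the mean of the other two of its group, on a log axis, for I/R+B12 2 (purple squares) and Sham 3 (grey circles). I/R+B12 2 lies below 1 for 32 of 33 genes, and Sham 3 lies above 2 for Acot1, Slc27a1, Pnpla2, Acot2, Plin5 and Cd36.

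Genes near the members in the pathway were read from lists chosen with earlier results of these data known. Other mitochondrial beta-oxidation genes had 13 of 14 negative averaged I/R differences (median -0.20). Acad11, an acyl-CoA dehydrogenase, fell by 0.59 (adjusted p 0.0286) and Acsf2, an acyl-CoA synthetase, by 0.42 (adjusted p 0.0465). The 1 positive difference of this list was 0.55 and was not called. Of 15 peroxisomal genes tested, 14 were negative (median -0.24) and Ehhadh, the peroxisomal bifunctional enzyme, fell by 0.97 (adjusted p 0.0272). Ketone and acetate genes were negative in 7 of 7 (median -0.26), with none called. Of all tested genes 1.71% fell, and 10.1% were called in either direction. In I/R+B12 against Sham+B12, 1 of the other mitochondrial beta-oxidation genes was called higher (0.85) and 1 lower, where 10.4% of all genes were called. The calls in these lists were not refitted with libraries left out.

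Among 13 other uptake and activation genes the median averaged I/R difference was 0.15. Acsl4, a synthetase that prefers arachidonic acid, rose by 0.71 (adjusted p 0.0216) and Vldlr, a lipoprotein receptor, fell by 0.52 (adjusted p 0.0486). Of 15 lipid droplet and lipolysis genes 11 were negative (median -0.20), and Gpam, which begins triglyceride synthesis, fell by 0.82 (adjusted p 0.0301) and the droplet coat gene Plin3 by 0.80 (adjusted p 0.0464). Among 11 genes of malonyl-CoA and AMPK control the median was 0.03, and Cab39, a partner of the AMPK kinase LKB1, rose by 0.39 (adjusted p 0.0495).

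The 19 PPAR, PGC-1 and ERR regulators had 11 negative and 8 positive differences (median -0.16). The coactivator Pprc1 rose by 0.86 (adjusted p 0.0180) and the respiratory gene activator Nrf1 by 0.57 (adjusted p 0.0272). All 6 I/R hearts were above all 6 sham hearts for both, which held for 3.62% of all genes. Under B12, between I/R+B12 and Sham+B12 hearts, Perm1, a muscle regulator of these receptors, fell by 1.21 (adjusted p 0.0379), with means of 33.6 FPKM in I/R+B12 and 72.6 FPKM in Sham+B12 hearts. In that comparison Pprc1 rose, with means of 7.70 FPKM in I/R+B12 and 3.06 FPKM in Sham+B12 hearts (adjusted p 0.0236), and Nrf1 rose by 0.72 (adjusted p 0.0337).

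Glucose and other mitochondrial genes had medians in the same direction. Of 33 glycolysis and pyruvate entry genes 23 were negative (median -0.22). The mutase Pgam1 rose by 0.66 (adjusted p 0.0353). The pyruvate dehydrogenase phosphatase subunit Pdp2 fell by 0.88 (adjusted p 0.0318), Pfkm, muscle phosphofructokinase, by 0.55, the pyruvate dehydrogenase kinase Pdk2 by 0.53 and Pfkfb2, which makes the activator of phosphofructokinase, by 0.42. Of 15 tricarboxylic acid cycle genes 14 were negative (median -0.24) and of 36 genes of respiratory complexes II to V 29 were (median -0.16), with none called in either list. The members' own median of -0.29 stood beside -0.27 for the 12 cardiomyocyte markers.

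**Figure D5:**
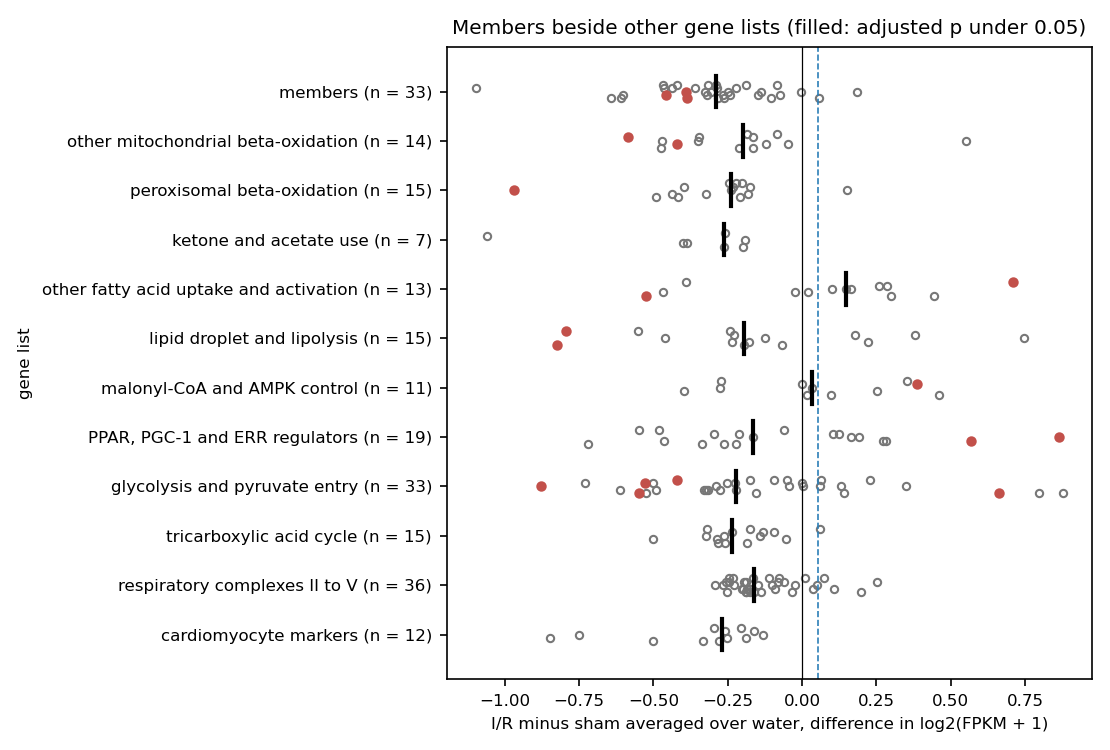
Each point is 1 gene of a list, and its place on the x axis the I/R minus sham difference in log2(FPKM + 1) averaged over both kinds of water. Black bars are list medians, the dashed line is the median of all tested genes (0.053), and filled red points have an adjusted p under 0.05. The members (median -0.29) and the cardiomyocyte markers (-0.27) have close medians.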

How the data were processed

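Heart RNA of 12 mice was sequenced as poly(A)-selected paired-end libraries, 3 in each of 4 groups named by the labels. The authors deposited 1 table of FPKM for 55487 genes, with a column for each library. HISAT2, StringTie and the build mm10 are named, per the submitters' processing notes, with no role, version or annotation release given in the sources used here. FPKM corrects for gene length and library total, so a rise of some genes lowers the others. The deposited columns of group means were not used. Gene positions came from GENCODE M21 (GRCm38), where 55141 IDs matched, and promoter sequences from RefSeq (GRCm38.p6), where 27 of 33 members matched; those of Decr1, Crat, Lpl, Acaa2, Cpt1b and Acot13 were not used here. Where a symbol named several rows, the row with the highest mean was taken.

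Counts were not used. Depth was estimated from the spacing of low FPKM values, using genes of 500 to 1200 nt and an effective length shortened by 270 nt. Between 82.0% and 87.9% of low values fell within 0.15 of a whole number of fragments, where 30% would by chance. The estimate covers counting error only.

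Values were tested as log2(FPKM + 1) in 1 fit of 4 group means over all 12 libraries, by limma 3.58.1 (R 4.3.3) with the variance trended on the mean. Tested genes had at least 1 FPKM in 3 or more libraries (13001 genes). Tests were two-sided. The Benjamini-Hochberg adjustment ran over all tested genes of a contrast, and the threshold for a call was an adjusted p of 0.05. A difference on this scale understates the change of low genes. The fit was tested on simulated data. Figures were drawn with matplotlib 3.10.9.

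The members and lists were chosen with earlier results of these data known. Values in every library are given for the 6 members with the smallest p in I/R+B12 against Sham+B12, the 4 with the smallest p in each other contrast, and members fixed by role (Cd36, Fabp3, Lpl, Cpt1a, Cpt1b, Acacb, Mlycd, Hadha, Acadm, Pnpla2, Plin5, Ucp3, Acot1 and Acot2). Genes of the pathway lists outside the members were named where called in the I/R difference averaged over water. In I/R+B12 against Sham+B12 only the called PPAR, PGC-1 and ERR regulators were named for that comparison. Other calls there were given as counts or left out, so the named genes are not all the calls. Further genes named were among the 2 of a list with the smallest p in I/R+B12 against Sham+B12 or between I/R+B12 and I/R hearts. Marker genes were not named by this rule. The alternatives were a pseudocount of 0.1, no filter, median-ratio scaling, library weights, the compared groups alone, a replicate block, each library left out in turn, and Sham 3 and I/R 3 left out together. Values relative to cardiomyocyte markers were added after the data were seen, and the ranges of adjusted p over the alternatives include them.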

Additional observations from a re-analysis of the deposited data

Results flagged for a closer look

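Plin5 was picked out because the libraries given B12 moved in opposite directions in injured and in uninjured hearts, a contrast that rests on Sham 3. All 3 I/R+B12 hearts (83.0, 58.1 and 125 FPKM) were above the mean of the I/R hearts, by 0.18 to 1.27 on the log2 scale. All 3 Sham+B12 hearts (82.1, 78.8 and 78.3 FPKM) were below the mean of the Sham hearts, by values from -0.12 to -0.05. The mean of the Sham hearts carries Sham 3 at 150.4 FPKM. Without Sham 3 and I/R 3 the difference was 0.70 between I/R+B12 and I/R hearts and 0.32 between Sham+B12 and Sham hearts, so both were then positive. The pattern of signs is not itself a test, and that difference was not tested by it. The limma interaction was 0.80 (adjusted p 0.456), which missed the threshold, and it was 0.38 without Sham 3 and I/R 3.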

How the results depend on the processing

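The counts of called members moved with the setting, as did those over all genes, given here in brackets (of 13001 tested, or of 26986 with no filter). In I/R+B12 against Sham+B12 limma called 0 members (1352), against 1 with median-ratio scaling (1898) and 1 with library weights (2252), Acacb in both. In I/R against Sham 0 were called (0), against 6 with library weights (3052). In the average over water 3 were called (1309), against 0 with no filter (274), 6 with median-ratio scaling (1074), 15 with library weights (3876) and 1 without Sham 3 and I/R 3 together (2298). Relative to cardiomyocyte markers 1 was called there (3967). Between I/R+B12 and I/R 0 were called (0), against 1 with library weights, Ucp3 (2838). Leaving out each library in turn gave 0 to 5 calls (0 to 3836) in I/R+B12 against Sham+B12. In I/R against Sham it gave 0 (0 to 1) and in the average 0 to 13 (0 to 2700). For I/R+B12 against I/R it gave 0 to 1 (0 to 4412). The counts were 0 (0 to 1) in Sham+B12 against Sham and 0 to 1 (0 to 1830) in the interaction.

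The members' medians were 0.065, 0.042 and 0.060 relative to cardiomyocyte markers (I/R+B12 against Sham+B12, I/R against Sham, and the average), and 0.26 in I/R+B12 against I/R with median-ratio scaling. With each library left out in turn they ran from -0.39 to -0.12, from -0.39 to -0.21, from -0.35 to -0.21, from -0.11 to 0.13, from -0.08 to 0.11 in Sham+B12 against Sham, and from -0.09 to 0.21 in the interaction.

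Signs that turned belonged to uncalled values. In the average, Lpl was -0.011 with median-ratio scaling and from -0.026 to 0.18 with a library left out, and Pnpla2 was 0.13 with library weights and from -0.23 to 0.14 with a library left out. Without Sham 3 and I/R 3, Pnpla2 was 0.25 and Acot1 0.073. Relative to cardiomyocyte markers 12 of 33 members were negative in the average, against 31 as deposited. Among the positive ones Fabp3 was 0.20, Acadm 0.069, Pnpla2 0.28 and Plin5 0.034. Etfa in I/R+B12 against I/R was 0.062 with median-ratio scaling. In Sham+B12 against Sham, without Sham 3 and also without Sham 3 and I/R 3, Acot1 was 0.010, Eci2 0.021, Slc27a1 0.054 and Cpt1a 0.026. With a library left out these ran from -0.97, -0.34, -0.74 and -0.37. The causes were not tested.

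The labels do not say whether the replicate numbers pair the libraries. Same-number libraries of different groups correlated at 0.014 on average after group means were removed (-0.41 to 0.39, 18 pairs). Those of different numbers correlated at -0.0087 (-0.36 to 0.31, 36 pairs). Of 12 libraries, 5 correlated best with their own number out of 3. With 3 libraries a group, these correlations cannot settle whether the numbers pair libraries. With the replicate block, 3 members were called in I/R+B12 against Sham+B12 (1057 of all genes) and 10 in the average (1331), and the other contrasts had 0. The estimated depth bears little on these genes, whose lowest value in any library was 6.45 FPKM, and the number of libraries, 3 a group, limits the precision.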

Other observations

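Of 13 other uptake and activation genes, 1 was higher and 2 were lower in I/R+B12 than in I/R hearts without overlap, and none was called. Over all tested genes 4.41% were higher and 18.8% lower without overlap. Gpihbp1, which anchors lipoprotein lipase to the capillary wall, averaged 329 FPKM in I/R+B12 and 209 FPKM in I/R hearts (difference 0.65, adjusted p 0.0794). Cav1, the main protein of caveolae, averaged 151 FPKM in I/R+B12 and 235 FPKM in I/R hearts (difference -0.68, adjusted p 0.115). Of 8 endothelial markers 3 were higher and 5 lower, with a median of -0.22. At an unadjusted limma p under 0.05, 2 were higher and 2 lower, and without overlap 2 were higher and 1 lower. Cldn5 (difference 1.05) and Pecam1 (0.45) were the 2 higher without overlap, named after their values were seen.

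In the same comparison 32 of 36 genes of complexes II to V of the respiratory chain were higher in I/R+B12 hearts, with a median of 0.10, where the members were 16 higher and 17 lower. Cox6b1, a subunit of cytochrome c oxidase, averaged 1778 FPKM in I/R+B12 and 1357 FPKM in I/R hearts (difference 0.39, adjusted p 0.0794), with no overlap between the groups. Peroxisomal beta-oxidation genes were lower in 12 of 15, with a median of -0.29. Decr2, the peroxisomal dienoyl-CoA reductase, averaged 3.86 FPKM in I/R+B12 and 7.05 FPKM in I/R hearts (difference -0.78, adjusted p 0.0913). The median of all tested genes was -0.21.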
